A study of Mus musculus with 4 samples.

Results

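The lysosomal genes described here are the subunits and accessory proteins of the V-ATPase, the cathepsins and legumain, and a set of other hydrolases, their activators, lysosomal membrane and lipid transport proteins and the regulator Tfeb. A gene was a member when its accession mapped to a symbol starting with Atp6v0, Atp6v1 or Atp6ap, or to 1 of 27 listed genes. This gave 52 of the 20971 named genes on the array, 25 of the V-ATPase and 27 listed, on 60 probes; 8 members had 2 probes and 44 had 1. Of 55 symbols that meet the definition in the gene table, 3 (Atp6v0c-ps1, Atp6v0c-ps2 and Atp6v1fnb) had no matched probe.

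RAW 264.7 is a macrophage-like cell line of BALB/c mouse origin. It was cultured in RPMI with serum and no antibiotic, and either left untreated or treated with Lactobacillus bulgaricus, a lactic acid bacterium of fermented milk, at a multiplicity of infection of 10 for 1, 4 or 6 h. Each of these 4 groups had 1 two-colour array, with RNA pooled from 3 cultures in Cy5 and a common reference, RNA pooled from all 4 groups, in Cy3. There was no dye swap, the 4 arrays lay on 1 slide in order of time, and slide position and time therefore cannot be told apart. As 1 cell line with pooled cultures, the series has no measure of the spread between cultures.

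Lysosomes are acidic compartments in which macrophages digest what they take up, bacteria included. The V-ATPase acidifies them: the V1 head hydrolyses ATP in the cytosol and turns the V0 sector, a ring in the membrane that carries protons inward. The low pH activates the cathepsins and the hydrolases of sugars and lipids. TFEB, a transcription factor, binds E-box motifs of the form CACGTG, known in lysosomal genes as CLEAR elements, and Tfeb, Mcoln1 and the V-ATPase subunits are known as parts of this network.

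Promoter windows from RefSeq (build GRCm38.p6, 250 bases before to 50 after an annotated start) were found for 42 of the 52 members. CACGTG stood in the windows of 12 of these (28.6%), against 8.09% of 27025 genes with a window. TCACGTGA, which contains it, stood in 6 (14.3%, against 1.12%), namely Atp6v0d1, Atp6v0e, Atp6v1a, Ctsa, Ctsd and Mcoln1, and its extension by a G before and a C after in 0 (against 0.37%). Each motif reads the same on both strands. A match describes the letters in the window and is not a binding site. The windows of 4 members are shown up to 10 bases past the start, since 3 of them share the motif and part in direction at 6 h, and Atp6v1d has the largest 6 h difference without it: Atp6v1a (chr16:44139250-44139509, minus strand), Atp6v0d1 (chr8:105566055-105566314, minus strand), Mcoln1 (chr8:3500269-3500528, plus strand) and Atp6v1d (chr12:78861629-78861888, minus strand). Capitals mark CACGTG.
Atp6v1a: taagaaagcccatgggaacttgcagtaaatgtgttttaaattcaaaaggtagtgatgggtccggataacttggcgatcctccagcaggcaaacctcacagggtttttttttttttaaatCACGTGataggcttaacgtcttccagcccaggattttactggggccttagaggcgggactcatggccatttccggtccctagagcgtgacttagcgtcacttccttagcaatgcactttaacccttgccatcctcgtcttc
Atp6v0d1: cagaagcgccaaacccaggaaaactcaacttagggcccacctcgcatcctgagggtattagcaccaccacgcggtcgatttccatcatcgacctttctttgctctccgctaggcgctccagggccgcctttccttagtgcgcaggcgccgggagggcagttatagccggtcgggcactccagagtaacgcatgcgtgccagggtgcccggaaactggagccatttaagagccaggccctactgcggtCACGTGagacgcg
Mcoln1: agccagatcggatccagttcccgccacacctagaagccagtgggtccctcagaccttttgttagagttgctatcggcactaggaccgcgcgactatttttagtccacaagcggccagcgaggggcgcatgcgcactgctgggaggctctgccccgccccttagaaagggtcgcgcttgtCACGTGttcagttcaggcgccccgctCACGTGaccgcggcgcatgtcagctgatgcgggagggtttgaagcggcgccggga
Atp6v1d: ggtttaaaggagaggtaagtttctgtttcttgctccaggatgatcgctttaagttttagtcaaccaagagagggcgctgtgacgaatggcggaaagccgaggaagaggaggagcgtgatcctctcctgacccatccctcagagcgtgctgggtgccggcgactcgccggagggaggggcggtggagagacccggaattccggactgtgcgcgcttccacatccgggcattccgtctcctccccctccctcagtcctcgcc
The motif began 131 bases before the start in Atp6v1a, 3 before it in Atp6v0d1, and 71 and 45 before it in Mcoln1. The Atp6v1d window held none.

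Cy5 was well above background at 49.51% to 51.75% of 43020 spots on the 4 arrays, and no spot was saturated. Values below are log2 ratios of Cy5 over Cy3 and their differences from the untreated array, which cancel the reference. No test was possible with a single array in each group, and precision is limited by how few arrays there are. Replicate spots of one probe gave an SD of 0.13 for a log2 difference at each time, which covers spot error only. Genes with a difference of 1 or more (2-fold) in either direction were counted. The 3 comparisons share the untreated array. Macrophage markers were present in Cy5 at 7 of 9 genes on each array; Cd14 was among those not well above background on all 4. In bulk RNA, fewer cells of a type and less RNA per cell cannot be told apart.

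No lysosomal member differed by 2-fold at any time. Of the measured members, 39 at 1 h, 40 at 4 h and 41 at 6 h, the count was 0 each time. In the whole set of measured genes the share higher at 1 h was 0.328% and the share lower 0.0482%; the pair was 0.242% and 0.213% at 4 h, and 0.456% and 0.466% at 6 h. Few genes of any kind passed, so a count of 0 among about 40 members lies near the background. At 1.5-fold (log2 0.58), 0 members counted at 1 h, Ctsh alone at 4 h and Atp6v1d alone at 6 h, both higher. The shares over all genes by this smaller rule were 1.31% higher and 0.463% lower at 1 h, 1.37% and 1.46% at 4 h, and 2.06% and 3.48% at 6 h.

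The median difference of the measured members was 0.03 at 1 h, 0.06 at 4 h and 0.00 at 6 h, beside 0.06, 0.00 and -0.01 over all measured genes. Beneath these medians the V1 head of the V-ATPase and the listed genes parted over time. The V-ATPase members had medians of 0.03, 0.17 and 0.12, and the listed genes had medians of 0.03, 0.01 and -0.17. The V1 head had medians of -0.01, 0.27 and 0.36 over 8 measured members. In the rest of the V-ATPase, the V0 sector stood at 0.10, 0.16 and 0.03 and the 2 accessory members at 0.05, -0.08 and -0.02. The proteases stood at -0.05, -0.04 (a sign that turned in 5 of 10 other settings) and -0.18 over 7 members and the other hydrolases at 0.04, -0.04 and -0.13 over 8. The difference between these groups was not tested.

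**Figure D1:**
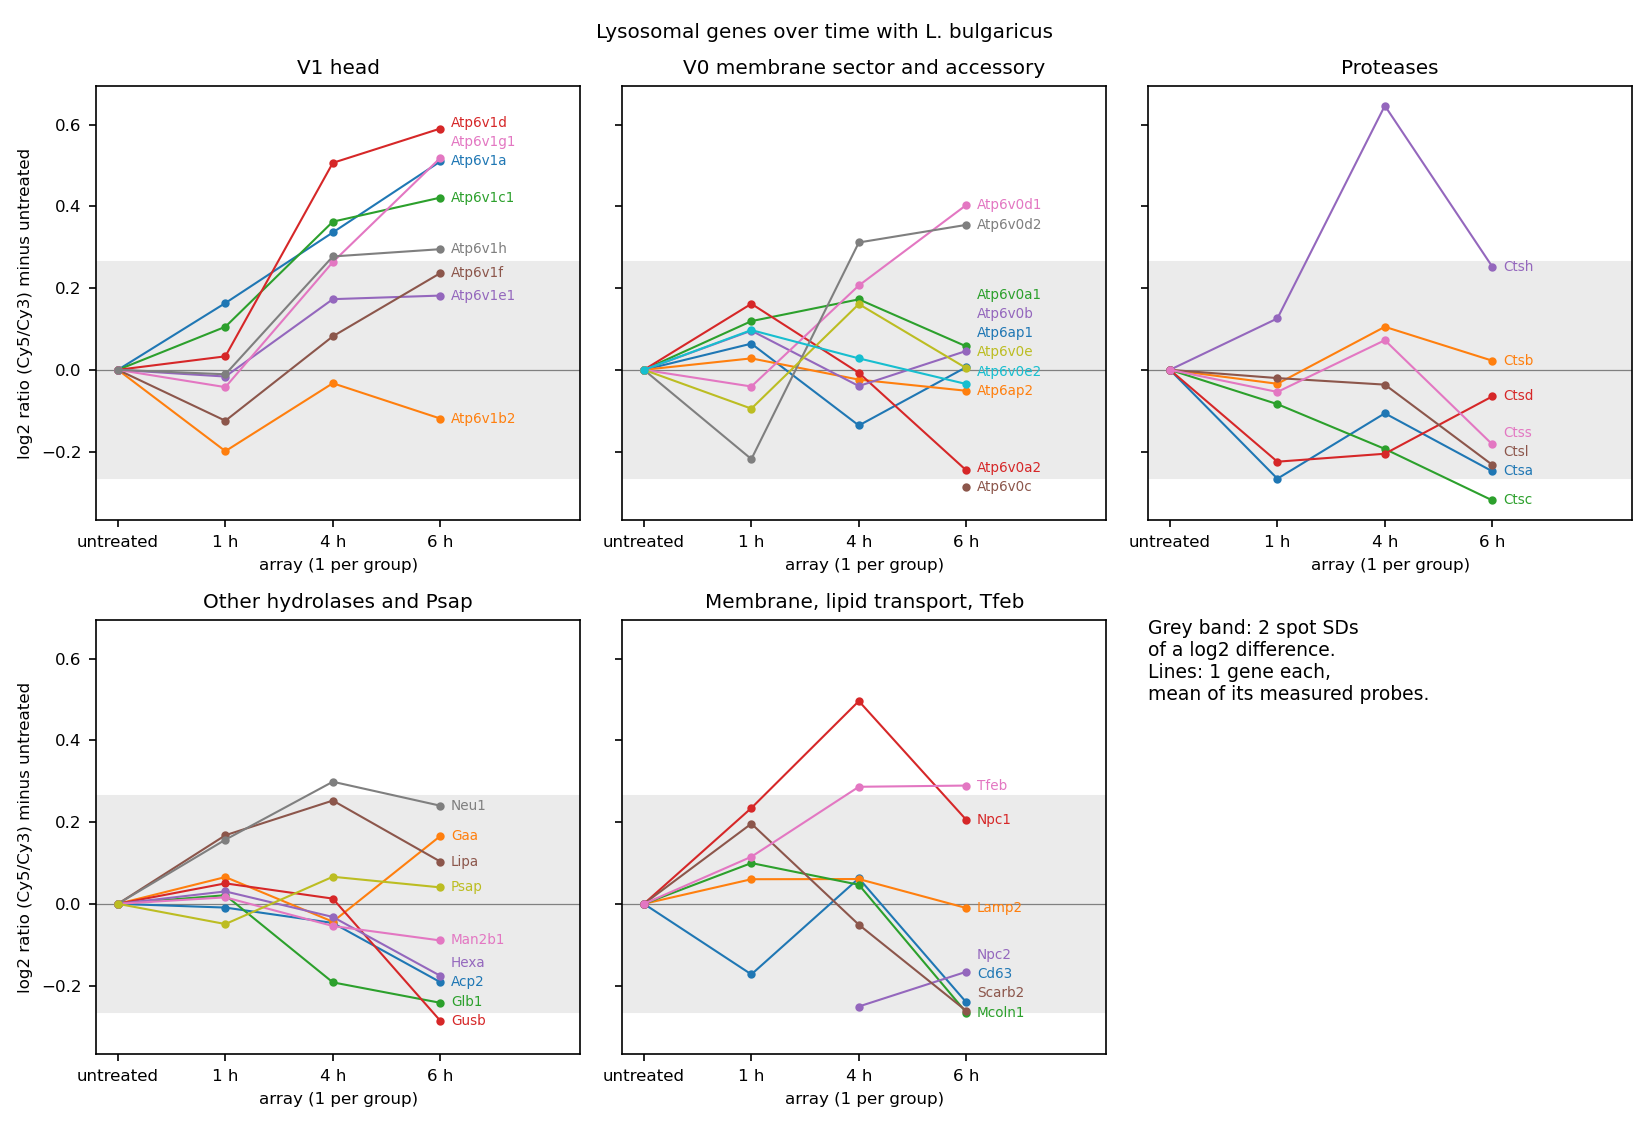
Log2 ratio (Cy5 over Cy3) minus that of the untreated array, on the y axis, for each measured lysosomal gene before treatment and after 1, 4 and 6 h, grouped by role; a line is 1 gene and the grey band is 2 spot SDs. Most V1 head genes leave the band upward at 4 or 6 h, Ctsh peaks at 4 h, and most proteases and membrane genes stay within the band or end below 0.

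More members passed a smaller limit of 2 spot SDs (0.26), which was chosen after seeing the data. At 1 h, 0 of 39 were higher by it and 1 (Ctsa) was lower, beside 7.57% higher and 2.75% lower over all genes. After 4 h, 9 of 40 were higher (Atp6v0d2, Atp6v1a, Atp6v1c1, Atp6v1d, Atp6v1h, Ctsh, Neu1, Npc1 and Tfeb) and 0 lower, beside 9.75% and 9.44%. After 6 h, 8 of 41 were higher (Atp6v0d1, Atp6v0d2, Atp6v1a, Atp6v1c1, Atp6v1d, Atp6v1g1, Atp6v1h and Tfeb) and 4 lower (Atp6v0c, Ctsc, Gusb and Mcoln1), beside 12.6% and 16.8%. Under all 10 other ways of computing the values, Atp6v1d and Npc1 stayed past this limit at 4 h. At 6 h Atp6v0d2, Atp6v1d and Atp6v1g1 did, and all of these were higher. Of the lower members, 0 remained past it in all 10. These 10 are not separate checks. The deposited ratio nearly repeats the processed signals. For a bright gene with 1 probe and no outlier spot, dropping the dim filter, keeping outlier spots or taking the brightest probe cannot change the value.

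In the V1 head, 7 of 8 measured members stood above 0 at 4 h and at 6 h, against 3 of 8 at 1 h. Over all measured genes 70.6% stood above 0 and 29.4% below it at 1 h, 50.9% and 49.1% at 4 h, and 47.9% and 52.1% at 6 h. The exception at both later times was Atp6v1b2, the B2 subunit of the ATP-hydrolysing ring, with differences of -0.20, -0.03 and -0.12. From the processed signals it lay above 0 at both later times, at 0.002 and 0.39, and the count was 8 of 8. The value of 0.002, at 4 h, was within 1 spot SD of 0. In Cy5 alone the count was 5 of 8 at each later time, where the median of all measured genes was 0.05 at 4 h and 0.04 at 6 h. A comparison of the 4 h with the 1 h array, which does not use the untreated array, gave differences of 0.17 to 0.47 with a median of 0.21 and all 9 measured V1 members above 0. Over all genes the median of this step was -0.05, with 37.7% above 0 and 62.3% below. Past 2 spot SDs of this step (0.20), 5 of the 9 V1 members were higher and 0 lower, beside 7.97% and 19.4% of all genes. From 4 h to 6 h the V1 median was 0.06, with 7 of 9 above 0 beside 46.4% of all genes. Past 2 spot SDs of that step (also 0.20), 1 was higher and 0 lower, beside 12.1% and 19.2%.

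Atp6v1d, the D subunit of the central rotor, had the largest range in the V1 head. Its processed Cy5 signal was 4864 on the untreated array and 5275, 6357 and 6823 at 1, 4 and 6 h, and its Cy3 signal was 6193, 6666, 5918 and 5894. Its log2 ratio was -0.38, -0.35, 0.12 and 0.21, a difference of 0.03, 0.51 and 0.59. The untreated and 1 h arrays were alike, the 4 h and 6 h arrays stood higher, and the reference was slightly lower on the latter pair. Atp6v1g1, a subunit of the peripheral stalk, had Cy5 signals of 7306, 7778, 8292 and 10709 and Cy3 signals of 8001, 9029, 7892 and 8283. Its log2 ratio of -0.15, -0.19, 0.12 and 0.37 was highest at 6 h, with differences of -0.04, 0.26 and 0.52.

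Atp6v1a, the catalytic A subunit, had 2 probes. The brighter one had Cy5 signals of 15566, 20655, 24750 and 27184 and Cy3 signals of 16948, 21446, 21514 and 21008. The dimmer one had Cy5 signals of 564, 269, 345 and 392 and Cy3 signals of 888, 399, 404 and 378. Against the untreated array, the later signals were higher for the brighter probe and lower for the dimmer one. Between 1 h and 6 h the Cy5 signal of both was higher on each later array. Both ratios were highest at 6 h, by 0.57 over untreated for the brighter probe and 0.45 for the dimmer. Their mean differed by 0.16, 0.34 and 0.51, and in Cy5 alone by -0.40, -0.03 and 0.11. Atp6v1e1, of the peripheral stalk, had the smallest range, with log2 ratios of 0.00, -0.01, 0.18 and 0.19. Its Cy5 signal was 9398, 12155, 13886 and 16118 and its Cy3 signal 9528, 11851, 12434 and 13451, so both channels were brighter on the later arrays.

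Atp6v1h, the regulatory H subunit, had Cy5 signals of 1535, 1546, 1897 and 1553 and Cy3 signals of 1487, 1634, 1512 and 1197. Its log2 ratio was 0.07, 0.06, 0.35 and 0.37. The Cy5 signal was high only at 4 h, and the 6 h ratio rests on a lower reference. Atp6v1c1, the C subunit that joins head and stalk, differed by 0.11, 0.36 and 0.42. Its Cy5 signal was flat (3293, 3452, 3742 and 3470) while its Cy3 signal was lowest on the later arrays (3638, 3739, 3115 and 2820). Atp6v1f, of the rotor, differed by -0.12, 0.08 and 0.24.

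**Figure D2:**
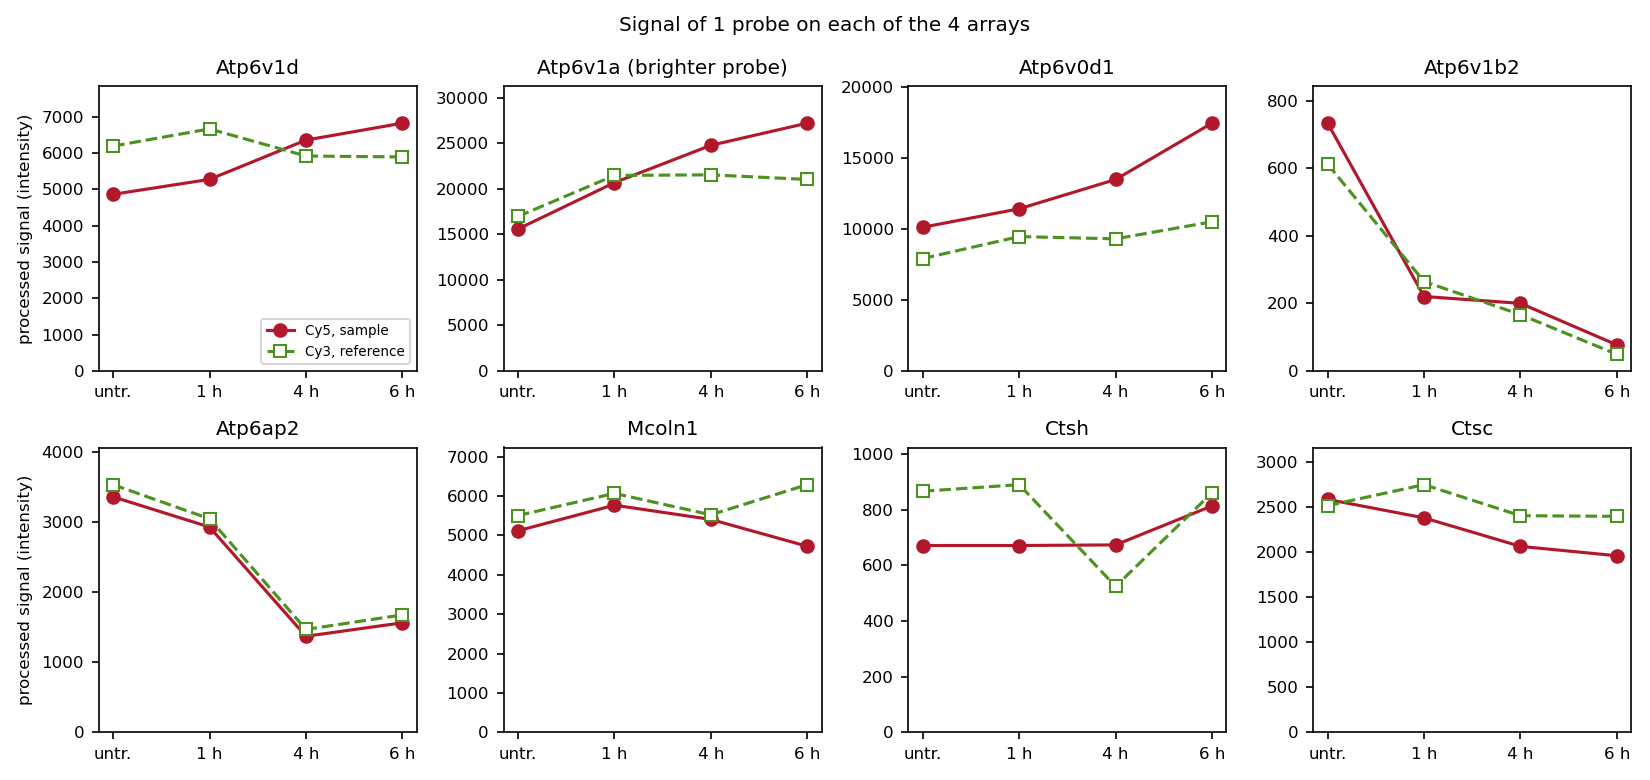
Processed signal (intensity, linear y axis from 0) of 1 probe per gene on each of the 4 arrays, in Cy5 (sample, filled circles) and Cy3 (common reference, open squares), for 8 lysosomal genes. Cy5 parts upward from Cy3 for Atp6v1d, Atp6v1a and Atp6v0d1, while in Atp6v1b2 and Atp6ap2 both channels are dimmer on the later arrays, and at 4 h the gap in Ctsh comes with a dimmer Cy3.

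The labels describe 1 reference for all arrays, and each channel was also compared with the untreated array on its own. Without the reference the V1 median was -0.24, 0.07 and 0.16 at 1, 4 and 6 h, and the Cy3 median of the same genes was -0.20, -0.20 and -0.29. Over all measured genes the medians were 0.06, 0.05 and 0.04 in Cy5 alone and -0.01, 0.04 and 0.07 in Cy3 alone. At 6 h Atp6v1d was higher by 0.41 in Cy5 and lower in Cy3 (-0.18), and Atp6v0d1 higher by 0.63 in Cy5 and by 0.22 in Cy3. For Atp6v1c1 the values at 6 h were -0.21 in Cy5 and -0.63 in Cy3, and for Atp6v1h -0.15 and -0.44, so their direction turns without the reference. Atp6v1b2 was the most extreme: its Cy5 signal was 734, 220, 200 and 77.1 and its Cy3 signal 612, 265, 167 and 49.1, a 6 h difference of -1.99 in Cy5 and -1.87 in Cy3. Both channels of this spot were dimmer on each later array, and the ratio differed by -0.12 after loess but by 0.39 from the processed signals, so its direction is not settled. What made both channels dimmer was not tested.

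**Figure D3:**
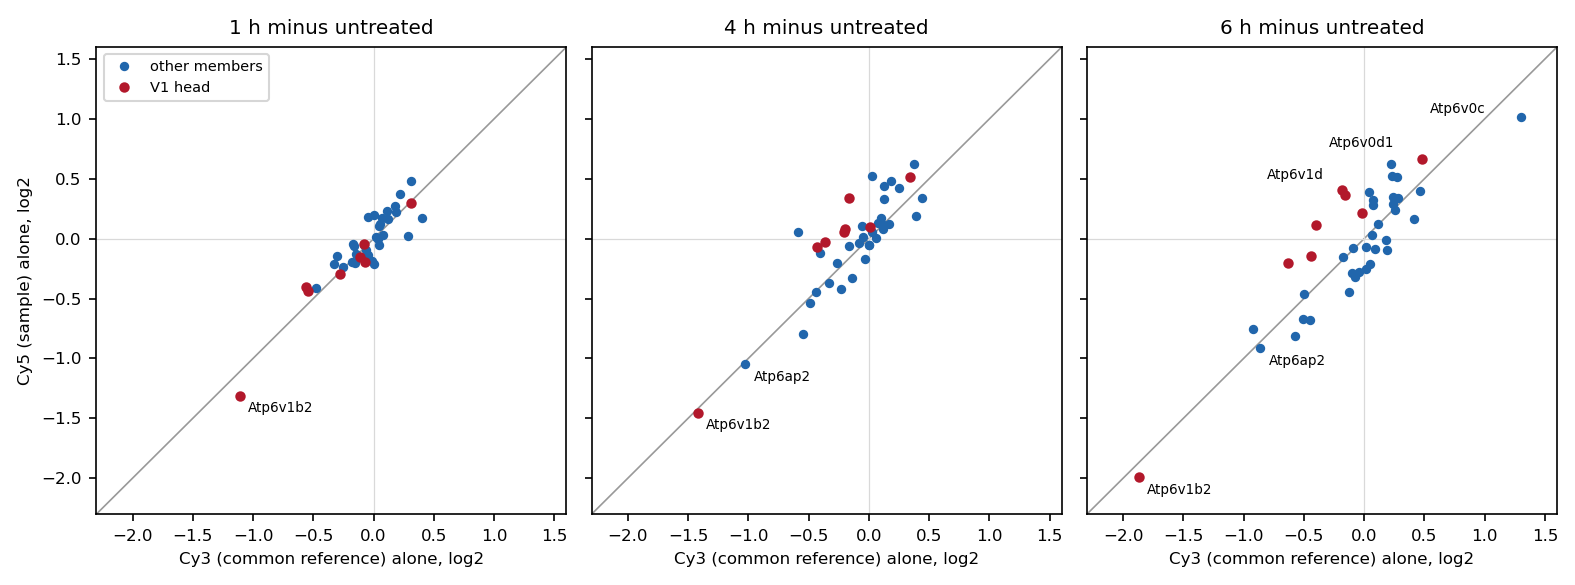
Difference from the untreated array in the normalized Cy5 channel alone (y axis, log2) against that in the Cy3 channel alone (x axis, log2) for each measured member at 1, 4 and 6 h; red points are V1 head genes, blue points the other members, and the line is equal change in both channels. At 6 h Atp6v1b2 lies near the line at -1.87 in Cy3 and -1.99 in Cy5, while Atp6v1d (-0.18, 0.41) and Atp6v0d1 (0.22, 0.63) lie above it.

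In the V0 sector the medians were 0.10, 0.16 and 0.03 over 7, 7 and 8 measured members. Atp6v0d1, the ubiquitous d1 subunit that couples rotor and ring, had Cy5 signals of 10116, 11416, 13479 and 17445 and Cy3 signals of 7915, 9458, 9301 and 10500. Its log2 ratio was 0.33, 0.29, 0.54 and 0.73, highest at 6 h, with differences of -0.04, 0.21 and 0.40. Atp6v0d2, the d2 isoform known from osteoclasts and macrophages, had the largest range of the sector. Its brighter probe had Cy5 signals of 585, 469, 1021 and 892, Cy3 signals of 686, 927, 760 and 624, and log2 ratios of -0.08, -0.38, 0.37 and 0.51. Its dimmer probe had Cy5 signals of 47.6, 34.9, 67.8 and 71.2, Cy3 signals of 41.5, 53.3, 43.8 and 45.4, and its log2 ratio was 0.01, -0.12, 0.19 and 0.13. Both probes were lowest at 1 h and higher at 4 and 6 h than on the untreated array. Their mean differed by -0.22, 0.31 and 0.35, from the processed signals by -0.78, 0.54 and 0.60, and at 6 h the probes gave 0.12 and 0.59.

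Atp6v0e2 had the smallest range in V0, with log2 ratios of -0.00, 0.10, 0.03 and -0.04. Its Cy5 signals were 3070, 3431, 3206 and 3204 and its Cy3 signals 3130, 3626, 3287 and 3401. Atp6v0a2, an a subunit of the proton path, differed by 0.16, -0.01 and -0.25, and its Cy5 signal was lower on each later array (266, 233, 151 and 92.5) with Cy3 at 280, 211, 168 and 130. Atp6v0c, the ring subunit, was measured at 6 h only, at -0.29, and stood at 1.02 in Cy5 alone and 1.30 in Cy3 alone. Its direction thus turns without the reference, and its value is uncertain. Its Cy5 signal was 38224.5 on the untreated array and 74686 at 6 h, and its Cy3 signal 20266 and 52247. Atp6v0c has near-identical pseudogene copies, and whether its probe also matches them could not be checked.

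Of the accessory members, Atp6ap1 and Atp6ap2 (the prorenin receptor) were measured. Atp6ap1 differed by 0.06, -0.14 and 0.01 and Atp6ap2 by 0.03, -0.02 and -0.05, both within 2 spot SDs. The Cy5 signals of the Atp6ap1 probes were 6437, 7070, 6050 and 5592 and 3211, 4029, 3616 and 4821. Their Cy3 signals were 4944, 5238, 4778 and 4189 and 2050, 2476, 2592 and 2971. Atp6ap2 had log2 ratios of -0.10, -0.07, -0.12 and -0.15, while its Cy5 signal was 3360, 2929, 1371 and 1564 and its Cy3 signal 3534, 3047, 1469 and 1676. As in Atp6v1b2, both channels were dimmer at 4 and 6 h, and here the ratio was flat.

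The tissue-restricted V-ATPase isoforms were not well above background in Cy5 on any array: Atp6v0a4, Atp6v1b1 and Atp6v1g3, known from kidney intercalated cells, Atp6v1c2, Atp6v1e2, known from testis, and Atp6ap1l. Atp6v1g2, known from neurons, was above background in Cy5 on all 4 arrays, at 53.9 to 71.9, but not in Cy3 on the untreated array. The list of 5 kidney markers includes Atp6v0a4, Atp6v1b1 and Atp6v1g3, so its count partly repeats their absence. Of the 5, 0, 1, 0 and 1 were above background in Cy5, taking the arrays in order of time. The 1 marker above it, at 1 h and 6 h, was Slc4a1.

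Among the proteases Ctsh, an aminopeptidase of the cathepsin family, had the largest range. Its Cy5 signal was flat up to 4 h (671, 671, 673 and 813) and its Cy3 signal was 866, 889, 524 and 860. The log2 ratio was -0.33, -0.20, 0.32 and -0.08, so the ratio was high on the 4 h array alone. The difference of 0.65 at 4 h was 0.06 in Cy5 alone, beside -0.59 in Cy3 alone. Ctsc, which activates granule serine proteases, had Cy5 signals of 2581, 2376, 2061 and 1957, lower on each later array. Its Cy3 signals were 2511, 2744, 2400 and 2393, and its log2 ratio was -0.02, -0.10, -0.21 and -0.34, giving differences of -0.08, -0.19 and -0.32.

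The cathepsins B and D stayed within 2 spot SDs of untreated at each time. Ctsb, with the smallest range of the proteases, had Cy5 signals of 28495, 28802, 27516 and 28360, Cy3 signals of 29821, 32958, 28447 and 30054 and log2 ratios of -0.03, -0.07, 0.07 and -0.01. Ctsd, an aspartic protease, differed by -0.22, -0.21 and -0.07, but its probes parted. One had Cy5 signals of 27634, 30159, 28943 and 33569, Cy3 signals of 29677, 31859, 29800 and 33687 and log2 ratios of -0.06, -0.11, 0.02 and 0.03. The other had Cy5 signals of 4283, 5398, 4866 and 6740, Cy3 signals of 2351, 4029, 3794 and 4130 and log2 ratios of 0.79, 0.39, 0.30 and 0.57. The second probe carried the negative values through a Cy3 signal that was low on the untreated array. Ctsa, which protects neuraminidase and galactosidase, showed the same split: its difference of -0.27 at 1 h was -0.59 in one probe and 0.06 in the other. Ctsl and Ctss, cysteine proteases of antigen processing, differed by -0.02, -0.04 and -0.23 and by -0.05, 0.07 and -0.18. Of the 7 measured proteases, 1, 3 and 2 stood above 0 at 1, 4 and 6 h, beside 70.6%, 50.9% and 47.9% of all measured genes. From 4 h to 6 h, 6 of 7 were below 0 beside 53.6% of all genes.

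Of the other hydrolases 7, 3 and 3 of 8 stood above 0 at the 3 times, beside 70.6%, 50.9% and 47.9% of all measured genes. Gusb, the beta-glucuronidase, had the largest range and was printed on the array in 10 spots. Its Cy5 signals were 22410, 29073, 26287 and 23434, its Cy3 signals 20336, 24764, 24063 and 26373 and its log2 ratios 0.15, 0.20, 0.16 and -0.14. The difference over its spots was 0.05, 0.01 and -0.29, with SDs of 0.21, 0.18 and 0.17 (n = 10 spots of 1 probe, not cultures), so the ratio was low on the 6 h array alone. Neu1, the neuraminidase, had Cy5 signals of 10255, 14064, 14510 and 15390, Cy3 signals of 11818, 15201, 14158 and 15259 and log2 ratios of -0.34, -0.18, -0.04 and -0.10. It stood above untreated at all times, by 0.16, 0.30 and 0.24. Man2b1, the alpha-mannosidase, had the smallest range, with log2 ratios of -0.16, -0.14, -0.21 and -0.25, Cy5 signals of 4684, 4246, 4271 and 4294 and Cy3 signals of 5277, 4756, 4952 and 4941. Hexa, Gaa, Glb1, Lipa and Acp2 lay between -0.24 (Glb1) and 0.17 (Gaa) at 6 h. The Gaa value rests on 1 of its 2 probes. The other was not well above background in Cy3 on the untreated array. Its log2 ratio was 0.25 there and 0.87 at 6 h. Lipa, the acid lipase of cholesteryl esters, stood at 0.17, 0.25 and 0.10.

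Psap, the precursor of the saposins that present lipids to hydrolases, had log2 ratios of 0.15, 0.10, 0.21 and 0.19. Its Cy5 signals were 12446, 12494, 11957 and 10126 and its Cy3 signals 10908, 11362, 9394 and 8676. The ratio was near the untreated value throughout, with differences of -0.05, 0.07 and 0.04.

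In the membrane and lipid transport group the medians were 0.10, 0.05 and -0.20 over 5, 6 and 6 members. Npc1, which exports cholesterol from the lysosome, had Cy5 signals of 905, 1002, 1259 and 1004, Cy3 signals of 810, 830, 798 and 787 and log2 ratios of 0.07, 0.31, 0.57 and 0.28. With a flat reference, its ratio was highest at 4 h, at 0.50 over untreated. Scarb2, the receptor that carries glucocerebrosidase to the lysosome, had Cy5 signals of 1615, 1899, 1665 and 1396, Cy3 signals of 1574, 1644, 1597 and 1599 and log2 ratios of 0.12, 0.32, 0.07 and -0.14. It stood above untreated at 1 h and below it at 6 h. Mcoln1, the lysosomal calcium channel TRPML1, had Cy5 signals of 5117, 5766, 5405 and 4724, Cy3 signals of 5504, 6066, 5523 and 6287 and log2 ratios of -0.10, -0.00, -0.06 and -0.37. It differed by 0.10, 0.05 and -0.27, so that, of the members with TCACGTGA in the window, Atp6v1a stood at 0.51 and Mcoln1 at -0.27 at 6 h.

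Lamp2, a main glycoprotein of the lysosomal membrane, had the smallest range of the group. Its probes had Cy5 signals of 2958, 3373, 3462 and 4199 and of 3476, 3789, 3783 and 3761, and Cy3 signals of 3657, 4351, 4078 and 4885 and of 3106, 3206, 3181 and 3520. Their log2 ratios were -0.15, -0.19, -0.19 and -0.16, and 0.16, 0.32, 0.33 and 0.15. The gene differed by 0.06, 0.06 and -0.01. Lamp1, its relative, had an outlier spot on the untreated array, so no difference from untreated is counted. On the other arrays its Cy5 signals were 30718, 31391 and 30598, its Cy3 signals 29156, 27612 and 28907 and its log2 ratios 0.08, 0.26 and 0.18. With the outlier spot kept, the untreated ratio was 0.28. Grn, Ctsz and Lgmn were also lost to outlier spots; with these kept, their log2 ratios ran from 0.13 to 0.42, 0.50 to 0.79 and -0.18 to 0.04 over the 4 arrays.

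Tfeb had Cy5 signals of 232, 243, 228 and 391 and Cy3 signals of 179, 140, 141 and 271. Its log2 ratio was 0.19, 0.31, 0.48 and 0.48, a difference of 0.12, 0.29 and 0.29. From the processed signals the differences at 1 and 6 h were 0.42 and 0.16, so at 6 h the value is then within 2 spot SDs. Both channels were brighter at 6 h, and at 4 h the value was -0.12 in Cy5 alone beside -0.41 in Cy3 alone, so the 4 h direction turns without the reference. Members with CACGTG in the promoter window had medians of 0.00, -0.04 and -0.03 (10 measured members), and those with a window and no match 0.03, 0.06 and -0.04 (20, 21 and 22). These windows were set beside the values as a description only.

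**Figure D4:**
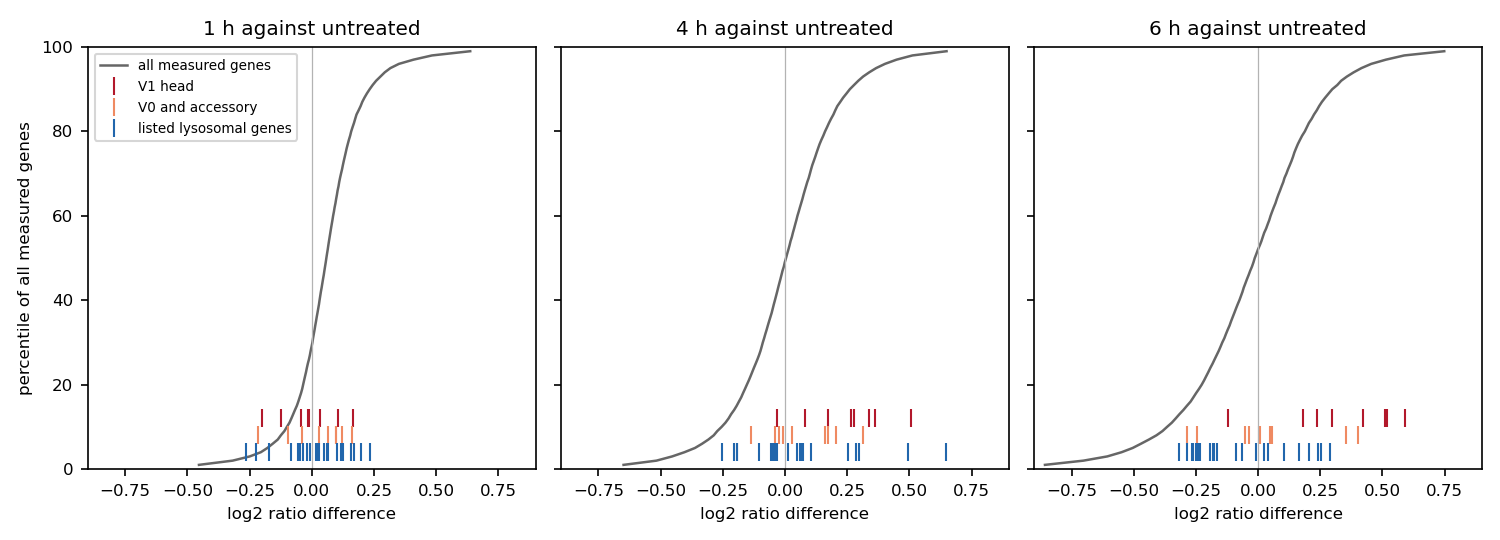
Log2 ratio difference from untreated (x axis) at 1, 4 and 6 h: the grey curve gives the percentiles of all measured genes (y axis), and each tick is 1 lysosomal member, in rows by group whose height has no meaning. The V1 head ticks (median 0.27 at 4 h and 0.36 at 6 h) sit mostly to the right of 0 at both later times, and the listed lysosomal genes (median -0.17 at 6 h) sit mostly to the left at 6 h.

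A list of 96 other lysosomal genes on the array, none of them a member, had medians of 0.05, -0.01 and -0.06, with 80, 81 and 81 measured and 0 past 2-fold. Past 2 spot SDs it had 0, 8 and 10 genes higher and 1, 3 and 15 lower. Over all measured genes the shares were 7.57% higher and 2.75% lower at 1 h. The pair was 9.75% and 9.44% at 4 h, and 12.6% and 16.8% at 6 h. The members of this list named by their largest difference at any time, with values at 1, 4 and 6 h, included the phospholipase Pla2g15 (0.22, 0.64 and 0.48), the mannose-6-phosphate uncovering enzyme Nagpa (0.06, -0.19 and -0.59), the folliculin gene Flcn (-0.11, 0.17 and -0.58) and Tcirg1 (0.10, 0.53 and 0.35). Tcirg1 encodes the a3 subunit of the V-ATPase and is no member only because of its symbol.

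Markers of other cell types also moved between the arrays. All 11 intestinal epithelium markers were above background in Cy5 on the untreated and 1 h arrays, 10 at 4 h and 9 at 6 h. Their summed Cy5 signal was 5052, 11163, 7778 and 6953, with medians of 0.46, 0.34 and 0.49 over untreated. The summed Cy3 signal of the same markers was 22971, 18690, 19181 and 17510, above that of Cy5 on each array. Why the pooled reference was brighter for them than each sample was not tested. The summed Cy5 signal of 10 fibroblast and smooth muscle markers, 6 of them above background on each array, was 1600, 2734, 5047 and 3968. Their medians over 6 measured genes were 0.39, 0.74 and 0.77. The 8 pancreatic acinar and gland markers, 4 of them above background on each array, had a summed Cy5 signal of 442, 1377, 547 and 2526, and their medians over 3 measured genes were 1.00, -0.09 and 1.89. The macrophage markers had medians of 0.03, -0.07 and -0.17. The osteoclast list, which shares Atp6v0d2, had 8 of 10 above background on each array, with medians of -0.08, -0.12 and -0.25. The part of these cell types in the lysosomal values was not tested.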

How the data were processed

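Per the submitters' processing notes, images were read in Agilent Feature Extraction 10.5.1.1. The deposited scanner files hold spot and background intensity for each channel, processed signals, and Cy5 over Cy3 as a log10 ratio, which a deposited series-wide table repeats. Further steps by the authors are not given in the sources used here.

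Median intensities were corrected with normexp (offset 50) and normalized by loess within each array in limma 3.58.1 (R 4.3.3), control and outlier spots at weight 0. Outlier spots were left out. A measured probe was well above background in Cy5 and Cy3 on each of the arrays compared. Spots were averaged per probe, then probes per gene. Probes were named by accession in a RefSeq table of GRCm38.p6 (27655 of 39429 matched); no probe coordinates are given, since the array was annotated on mm9. Cy5 or Cy3 alone is after Aquantile normalization. Spot error comes from 228 measured probes of 399 with 10 spots. The steps were tested on simulated data. Figures used Python 3.11.15.

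Values on all arrays are given for the 2 largest and the smallest range per role among members measured on all 4 arrays, and for Tfeb, Mcoln1, Lamp1, Ctsd, Ctsb, Atp6v0d1, Atp6v0d2 and Atp6v1h; Atp6v1a, Atp6v1b2, Atp6v1c1 and Atp6v0a2 were added after their values were seen. Members and lists were chosen with earlier results of these data known. Of the other settings tried, 12 were chosen at the start and 1 after seeing the data.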

Additional observations from a re-analysis of the deposited data

Results flagged for a closer look

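Atp6v0a2, Atp6v0d2 and Scarb2 stood on opposite sides of the untreated array at different times, each by more than 1 spot SD. The difference between times was not tested, and the share of all genes that did the same was not counted. Among all measured genes Scarb2 lay near the 86th percentile at 1 h and the 17th at 6 h, and Atp6v0a2 near the 81st and 18th. Atp6v0d2 lay near the 4th at 1 h and the 93rd at 4 h and 6 h. Atp6v0a2 differed by 0.1617 at 1 h and by -0.2461 at 6 h; in Cy5 alone its 1 h value was -0.14, so the change of side is lost without the reference. Atp6v0d2 differed by -0.2185 at 1 h, by 0.3118 at 4 h and by 0.3549 at 6 h. The processed signals gave -0.78, 0.54 and 0.60, and the values without background correction gave -0.39 at 1 h. Median centring without loess gave 0.20 at 1 h, where the median of all genes was 0.86. Scarb2 differed by 0.1962 at 1 h and by -0.262 at 6 h.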

How the results depend on the processing

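No paired analysis was possible because each group had 1 array, and for the same reason no replicate could be left out. The V1 median kept its sign at 4 h (0.07 to 0.29) and 6 h (0.16 to 0.42) under all 10 alternatives in the values. So did the 6 h medians of the proteases (-0.33 to -0.14) and other hydrolases (-0.28 to -0.08). The V1 value of 0.07 at 4 h came from Cy5 alone, where the median of all measured genes was 0.05. Among the 10, the deposited ratio nearly repeats the processed signals, so a count of alternatives takes in both. The 4 h protease median turned in 5 of them, reaching 0.07, and the 6 h median of all members in 5. Median centring without loess shifted the median of all genes to 0.86 at 1 h and -0.15 at 6 h. It gave 24 members higher at 1 h, with medians of 1.02 (all members), 0.98 (V1), 0.91 (proteases) and 1.07 (other hydrolases), and at 6 h -0.15, 0.19, -0.33 and -0.28. Cy5 alone gave 1 member lower at 1 h, 2 lower at 4 h, and 1 higher and 1 lower at 6 h. Its V1 medians were -0.24, 0.070 and 0.16, beside 0.06, 0.05 and 0.04 over all measured genes. The share of all genes past 2-fold was not counted for Cy5 alone or for median centring. At 6 h the SD over all measured genes was 0.46 in Cy5 alone and 0.31 for the ratio. At a log2 difference of 0.58, 1 member was higher at 4 h and 1 at 6 h. At 2 spot SDs, added after seeing the data, 1 was lower at 1 h, 9 higher at 4 h, and 8 higher and 4 lower at 6 h. With no filter on dim probes the V1 median at 6 h was 0.18; this takes in members not measured in the main setting. The cause of the other shifts was not tested. Dim probes near background, such as the dimmer Atp6v0d2 probe, limit what can be read, and the offset shrinks their differences.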
